A study of Mus musculus with 4 samples.

Results

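The genes described here are 8 members of the MHC class II antigen presentation pathway, taken by name from the 37315 Ensembl genes counted in mouse liver. They are H2-Aa, H2-Ab1 and H2-Eb1, which encode chains of the surface class II molecules, H2-DMa, H2-DMb1 and H2-DMb2, which encode chains of the peptide exchange factor DM, Cd74, the invariant chain, and Ciita, the class II transactivator. All 8 were found in the count files, and all 8 passed the filter on low counts, beside 14657 genes in all. RNA sequencing was done on liver of C57BL/6 mice aged 23 weeks, 2 libraries from animals with a synonymous Foxo1 mutation and 2 from wild type animals. Foxo1 is a forkhead transcription factor restrained by insulin, and a synonymous mutation changes a codon without changing the amino acid. The position of the mutation, its zygosity, and the sex and feeding state of the animals were not given in the sources used here. Whether the 2 libraries of a group are from different animals is not stated either, so the p-values cover only sample-to-sample spread, which may be technical.

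Class II molecules are pairs of an alpha and a beta chain that display peptides from endosomes to CD4 T cells. The invariant chain Cd74 guides newly made class II chains to endosomes and blocks their groove, cathepsin S and other proteases degrade it, and DM removes its last fragment so that other peptides can bind. Transcription of these genes depends on Ciita, which is recruited by a complex of RFX, CREB and NF-Y proteins assembled on the X and Y boxes of class II promoters. In liver, class II is known mainly from Kupffer cells, dendritic cells and B cells, and hepatocytes at rest carry little of it. In C57BL/6 mice the gene for the E alpha chain carries a promoter deletion, so the E beta chain from H2-Eb1 lacks its usual partner.

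Total counts were 95908652 and 83594287 in mutant replicates 1 and 2, and 80975687 and 73551737 in wild type replicates 1 and 2. No pair of libraries was a duplicate: the chi-square per gene between pairs was 61.8 to 108, and the 3 highest values were the pairs with wild type replicate 2. Foxo1 was at 33.6 and 53.4 normalised CPM (counts scaled to the effective library size) in mutant liver, against 44.0 and 54.8 in wild type liver, and its log2 fold change was −0.18 (SE 0.30). Across 14657 tested genes, 50 passed an adjusted p below 0.05 (edgeR quasi-likelihood test with Benjamini-Hochberg adjustment), which is 0.341% of them. Markers of hepatocytes, 8 in all, summed to 95009 and 92276 CPM in mutant and to 97962 and 109125 CPM in wild type liver.

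Promoter windows from RefSeq (build GRCm38.p6, the build behind mm10) were at hand for H2-Aa, H2-Eb1, H2-DMa, H2-DMb1 and H2-DMb2, 5 of the 8 genes. Each window runs from 250 bases before to 50 bases after a start site. Those of 4 genes are printed to show which motifs precede them. H2-Aa, H2-Eb1 and H2-DMb1 share a common pattern across the libraries, and H2-DMb2 has another. The H2-DMb2 pattern rests on 22 to 38 counts per library, and how its reads were split from those of H2-DMb1 is uncertain. H2-DMa, which shares the common pattern, is described below without its sequence. They lie at chr17:34287774-34288073 (H2-Aa, minus strand), chr17:34305617-34305916 (H2-Eb1, plus strand), chr17:34152941-34153240 (H2-DMb1, plus strand) and chr17:34144999-34145298 (H2-DMb2, plus strand). Capitals mark the core of the Y box (ATTGG), a core of the X box (AACNGATG) and the palindromic cAMP response element (TGACGTCA), each searched on both strands. The letters were chosen with these promoters in view.
H2-Aa: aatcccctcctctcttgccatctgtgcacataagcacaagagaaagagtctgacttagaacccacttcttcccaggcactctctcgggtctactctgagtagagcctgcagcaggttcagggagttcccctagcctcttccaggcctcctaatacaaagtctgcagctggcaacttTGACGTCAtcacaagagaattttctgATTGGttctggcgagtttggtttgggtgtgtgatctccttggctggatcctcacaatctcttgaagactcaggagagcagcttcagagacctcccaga
H2-Eb1: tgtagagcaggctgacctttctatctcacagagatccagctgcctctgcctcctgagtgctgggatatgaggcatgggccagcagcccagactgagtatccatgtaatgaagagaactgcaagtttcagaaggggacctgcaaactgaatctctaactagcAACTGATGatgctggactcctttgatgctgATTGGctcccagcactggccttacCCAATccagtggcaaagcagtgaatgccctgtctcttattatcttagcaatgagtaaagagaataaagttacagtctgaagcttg
H2-DMb1: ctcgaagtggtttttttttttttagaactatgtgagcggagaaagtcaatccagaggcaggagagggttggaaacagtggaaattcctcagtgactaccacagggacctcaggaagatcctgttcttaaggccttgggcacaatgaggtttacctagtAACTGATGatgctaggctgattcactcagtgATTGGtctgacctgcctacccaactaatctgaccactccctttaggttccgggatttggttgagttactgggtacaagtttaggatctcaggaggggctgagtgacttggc
H2-DMb2: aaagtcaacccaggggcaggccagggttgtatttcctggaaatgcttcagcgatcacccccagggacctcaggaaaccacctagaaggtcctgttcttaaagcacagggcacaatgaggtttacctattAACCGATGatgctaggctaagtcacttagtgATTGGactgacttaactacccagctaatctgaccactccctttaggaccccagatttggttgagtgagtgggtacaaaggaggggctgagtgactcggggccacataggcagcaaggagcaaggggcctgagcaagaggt

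The Y box core lay on the plus strand of the window in all 4 printed promoters, at positions −48, −59, −61 and −90 from the start site in H2-Aa, H2-Eb1, H2-DMb1 and H2-DMb2. H2-Eb1 held another on the opposite strand at −35. The X box core was found in H2-Eb1, H2-DMb1 and H2-DMb2, at −89, −92 and −121. It stood 30 bases upstream of the Y box core in H2-Eb1 and 31 bases in both DM beta genes. In H2-Aa the letters of the X box core are not in this window, and a cAMP response element was found at −74. No matches overlapped each other in these windows. For H2-DMa, which is not printed, the windows at hand held no X box core. They lie inside its annotated span, and any other start site of H2-DMa was not searched. An X box there is thus not excluded. The H2-DMa window at chr17:34125268-34125567 held a Y box core at −198 and no other match. Its window at chr17:34122582-34122881 held none of the motifs. The Y box core alone occurred in 37.4% of all 32851 promoter windows, the X box core in 2.32% and the cAMP response element in 1.79%. An X box core followed on the same strand by a Y box core 15 to 45 bases downstream occurred in 12 windows, 0.0365% of all. Among those 12 were the windows of H2-Eb1, H2-DMb1, H2-DMb2 and their neighbour H2-Eb2. Because the letters were chosen with these promoters in view, their place among the 12 is no test. The DM beta genes are also near-identical copies. A match of letters is a description of the window and not a measured site.

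**Figure D1:**
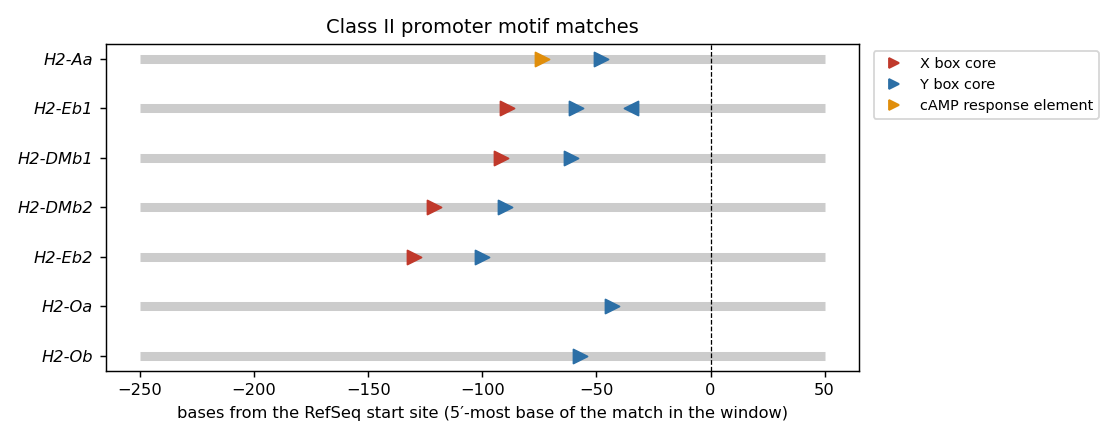
Positions of motif matches in promoter windows of class II genes, in bases from the RefSeq start site (dashed line), with arrowheads pointing along the strand of the match. H2-Eb1, H2-DMb1, H2-DMb2 and H2-Eb2 hold an X box core 30 or 31 bases upstream of a Y box core. H2-DMa is not drawn.

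Class II transcripts were a small part of the liver libraries. The 8 genes together took 0.00680% and 0.0118% of the counts in the mutant libraries, against 0.00512% and 0.00894% in the wild type libraries. In bulk tissue, a change in the number of cells of a type and a change in RNA per cell cannot be told apart.

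The classical alpha chain gene H2-Aa (ENSMUSG00000036594, mm10 chromosome 17, 34282744 to 34287823, minus strand) was at 12.4 and 20.6 CPM in mutant replicates 1 and 2, against 7.63 and 15.1 CPM in wild type replicates 1 and 2. Mutant replicate 2 was highest and wild type replicate 1 lowest, and the groups overlapped. Its log2 fold change was 0.54 with an SE of 0.56 and a 95% confidence interval of −1.51 to 2.59 (edgeR adjusted p = 0.9999). Its partner H2-Ab1, the A beta chain (ENSMUSG00000073421, chromosome 17, 34257689 to 34269419, plus strand), was at 9.52 and 17.8 CPM in mutant liver, against 6.89 and 14.3 CPM in wild type liver. The order of the 4 libraries was the same as for H2-Aa. Its log2 fold change was 0.37, with an interval of −2.02 to 2.76 and an SE of 0.64 (edgeR adjusted p = 0.9999).

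The E beta chain gene H2-Eb1 (ENSMUSG00000060586, chromosome 17, 34305867 to 34316674, plus strand) was at 7.36 and 12.6 CPM in mutant liver, against 6.16 and 9.09 CPM in wild type liver. Here too mutant replicate 1 lay between the wild type libraries. The log2 fold change of H2-Eb1 was 0.39 (SE 0.35, edgeR adjusted p = 0.9999). H2-Ea-ps, the E alpha gene of this strain and no member, had a count of 0 in all 4 libraries, which allows up to 3 counts, or 0.0313 to 0.0408 CPM per library. The E beta transcript was thus measured without a detectable E alpha transcript at this depth. Intervals and limits from counts cover counting error only.

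Cd74, the invariant chain (ENSMUSG00000024610, chromosome 18, 60803848 to 60812652, plus strand), was the most abundant of the 8. It was at 34.1 and 59.7 CPM in mutant liver, against 24.9 and 46.3 CPM in wild type liver. The higher library of each group exceeded the lower one by more than the difference between the group means. Its log2 fold change was 0.40 with an SE of 0.57 and an interval of −1.79 to 2.58 (edgeR adjusted p = 0.9999). Cd74 held 49.8% and 50.7% of the summed counts of the 8 genes in the mutant libraries and 49.8% and 50.9% in the wild type libraries. This share stayed nearly level while the sum itself was 68.5 and 118 CPM in mutant liver and 49.98 and 91.0 CPM in wild type liver.

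DM is made of an alpha chain from H2-DMa and a beta chain from either H2-DMb1 or H2-DMb2. H2-DMa (ENSMUSG00000037649, chromosome 17, 34119541 to 34139101, plus strand) was at 1.93 and 2.88 CPM in mutant liver, against 1.78 and 2.27 CPM in wild type liver. Exons of the opposite-strand gene Brd2 cover 10.4% of its exon length, and the library kit is not strand-specific, so strand does not tell these reads apart. Whether such reads were counted for H2-DMa or left out is not known. H2-DMb1 (ENSMUSG00000079547, chromosome 17, 34153072 to 34160230, plus strand) was at 1.96 and 3.25 CPM in mutant liver, against 1.40 and 2.52 CPM in wild type liver. Both genes kept the order of libraries seen for H2-Aa. Their log2 fold changes were 0.25 (SE 0.26) for H2-DMa and 0.42 (SE 0.34) for H2-DMb1.

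H2-DMb2 (ENSMUSG00000037548, chromosome 17, 34143307 to 34151555, plus strand) did not share that order. It was at 0.399 and 0.311 CPM in mutant liver (38 and 26 counts), against 0.422 and 0.304 CPM in wild type liver (35 and 22 counts). Here the first-numbered library of each group was the higher one, and the 95% Poisson intervals of all 4 libraries overlapped. The log2 fold change of H2-DMb2 was −0.034 (SE 0.52). The DM beta genes are near-identical copies: 26.8% of the 50-base windows of the H2-DMb2 transcript also occur in H2-DMb1, and 27.2% of those of H2-DMb1 in H2-DMb2, so how their reads were split is uncertain. Counting all 165 genes that share a window with H2-DMb2, 31.3% of its windows were shared. The sum of H2-DMb1 and H2-DMb2 was 2.36 and 3.56 CPM in mutant liver and 1.82 and 2.82 CPM in wild type liver. This sum does not depend on the split between them, but whether reads matching more than 1 gene were left out is not known. In the other 6 transcripts 0 such windows were shared with another gene.

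Ciita (ENSMUSG00000022504, chromosome 16, 10480059 to 10528418, plus strand), the transactivator on which the other 7 depend, was at 0.798 and 0.729 CPM in mutant liver (76 and 61 counts), against 0.808 and 1.09 CPM in wild type liver (67 and 79 counts). It was the only one of the 8 genes whose groups did not overlap, with both mutant libraries lower. Groups did not overlap in that direction in 17.0% of all tested genes. The closest libraries of the 2 groups were 0.798 and 0.808 CPM, with 95% Poisson intervals of 0.629 to 0.999 and 0.626 to 1.03. The log2 fold change of Ciita was −0.31 with an SE of 0.35 and an interval of −1.07 to 0.44 (edgeR adjusted p = 0.9999). Exons of the opposite-strand gene Dexi cover 3.45% of its exon length.

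**Figure D2:**
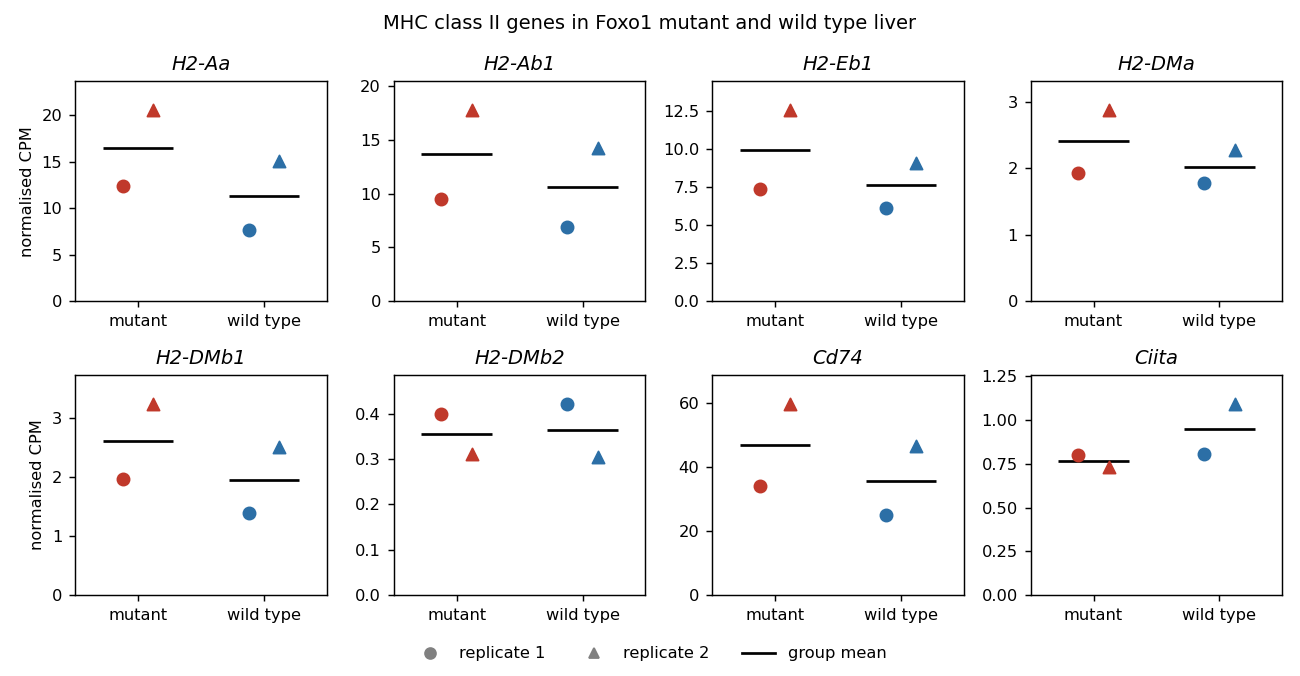
Normalised CPM of each class II gene by group, 1 point per library (circle, replicate 1; triangle, replicate 2), with a line at the group mean of 2 libraries; each panel has its own axis starting at 0. In 6 panels the order from low to high is wild type replicate 1, mutant replicate 1, wild type replicate 2, mutant replicate 2, whereas H2-DMb2 and Ciita show other orders.

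Of the 8 genes, 6 had a positive log2 fold change and 2 a negative one, with a median of 0.38, beside a median of −0.0013 over all tested genes, of which 49.7% were positive. In edgeR 0 of 8 passed the threshold in either direction, where 0.280% of all tested genes passed as higher and 0.0614% as lower. An unadjusted p below 0.05 was reached by 0 of 8 and by 6.19% of all tested genes. DESeq2, which gave H2-DMb2 no adjusted p, and limma-voom also called 0. With the replicate number as a block, though no label pairs the libraries, edgeR called 1 of 8 (H2-Aa), beside 0.757% of all tested genes. In the fit without this block standard errors were 0.26 to 0.64, against a median of 0.15 over all genes. Intervals this wide do not show that the groups were alike. In edgeR without robust estimation the log2 fold changes were the same. The unadjusted p was then 0.12 instead of 0.42 for H2-Aa, 0.32 instead of 0.61 for H2-Ab1 and 0.22 instead of 0.55 for Cd74. For H2-DMa it was 0.37 instead of 0.36. The interval widths of H2-Aa, H2-Ab1 and Cd74 thus depend in part on the estimation, and 0 of 8 passed either way. Without mutant replicate 2 the log2 fold change turned negative for H2-Ab1, H2-Eb1, H2-DMa and Cd74, at −0.15, −0.050, −0.069 and −0.062, and that of H2-DMb2 turned positive at 0.13. Without wild type replicate 1 that of H2-Ab1 was −0.065 and that of H2-DMb2 0.22.

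**Figure D3:**
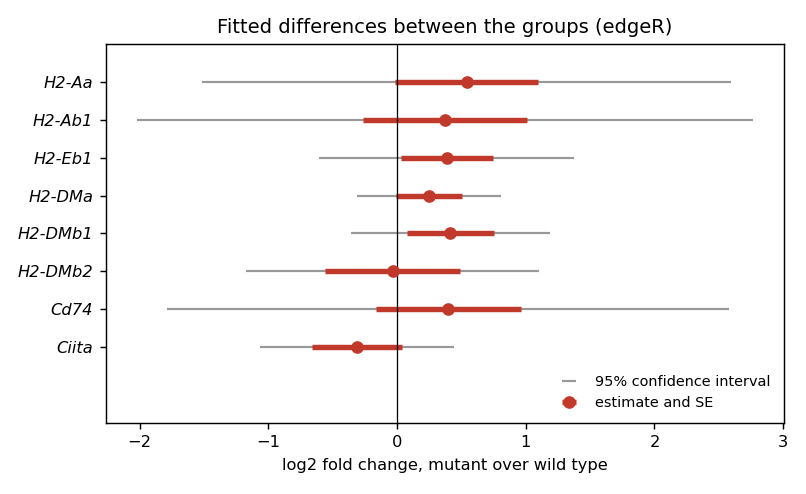
Log2 fold change of each class II gene, mutant over wild type, from the edgeR fit over 2 libraries a group; thick bars are SE and thin bars 95% confidence intervals. All 8 intervals include 0, and those of H2-Aa, H2-Ab1 and Cd74 reach past 2 on the log2 scale.

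The difference between libraries of the same group was larger than the difference between the groups for H2-Aa, H2-Ab1, H2-Eb1, H2-DMa, H2-DMb1 and Cd74. In these 6 genes, grouped after their values were seen, mutant replicate 2 exceeded mutant replicate 1 by 1.49-fold to 1.87-fold. Wild type replicate 2 exceeded wild type replicate 1 by 1.27-fold (H2-DMa) to 2.07-fold (H2-Ab1), and the fold of mutant over wild type was 1.19 to 1.45. Low to high, all 6 had the order wild type replicate 1, mutant replicate 1, wild type replicate 2, mutant replicate 2, an order found in 618 of all tested genes (4.22%). In 5 of the 8 members replicate 2 exceeded replicate 1 by at least 0.5 on the log2 scale in both groups, as in 1.73% of all tested genes.

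Counting error was small beside this spread for the abundant members. One SD of counting error for Cd74 was 1.41% to 2.20% of its level, and the 95% Poisson intervals of its libraries did not overlap within either group. That was also so for H2-Aa, H2-Ab1, H2-Eb1 and H2-DMb1, whereas those of H2-DMa overlapped between the wild type libraries. Over all 8 genes the median absolute log2 difference between libraries was 0.72 in the mutant and 0.70 in the wild type group. Over all tested genes it was 0.17 in the mutant and 0.16 in the wild type group.

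**Figure D4:**
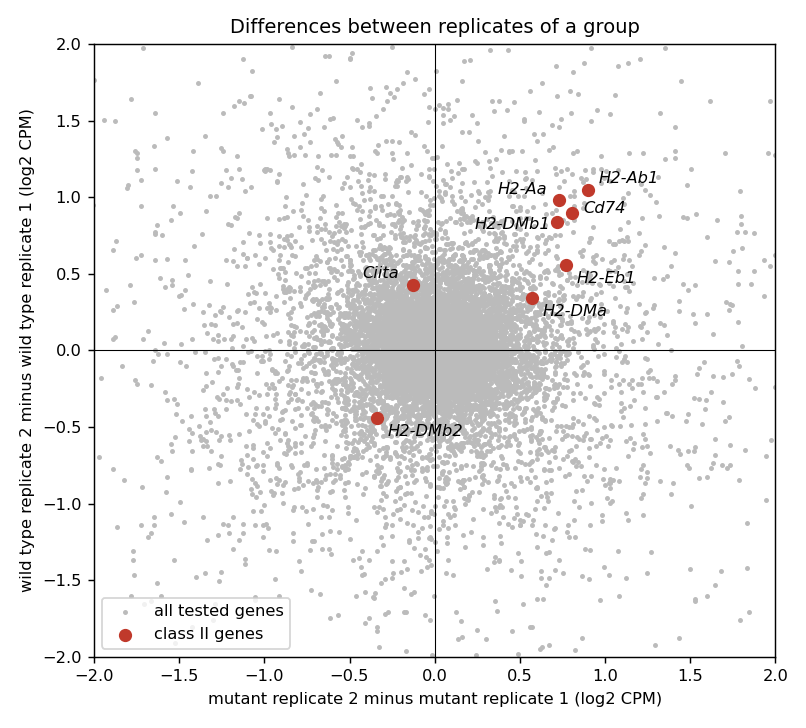
Difference in log2 CPM between replicates 2 and 1 of the mutant group (horizontal) and of the wild type group (vertical) for all tested genes (grey) and the 8 class II genes (red); 230 genes lie outside the axes, which end at 2. H2-Aa, H2-Ab1, H2-Eb1, H2-DMa, H2-DMb1 and Cd74 lie together at the upper right, with H2-DMb2 at the lower left and Ciita near the centre.

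Levels between genes were compared as CPM per kilobase of the principal transcript. On that scale Cd74 was highest, at 33.3 ± 12.8 in mutant and 25.3 ± 10.8 in wild type liver (SD, n = 2 each). H2-Aa followed at 14.6 ± 5.12 in mutant and 10.1 ± 4.70 in wild type liver, and H2-Ab1 at 11.3 ± 4.83 and 8.73 ± 4.31 in the same groups. H2-Eb1 was at 5.98 ± 2.21 in mutant and 4.57 ± 1.24 in wild type liver. The mean ± SD ranges of neighbours in this order overlapped in both groups, except those of Cd74 and H2-Aa in mutant liver. Within every library the order was Cd74, H2-Aa, H2-Ab1, H2-Eb1.

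The DM chains formed a lower tier of per-kilobase levels. H2-DMb1 was at 1.86 ± 0.648 in mutant and 1.40 ± 0.564 in wild type liver, and H2-DMa at 1.45 ± 0.404 in mutant and 1.22 ± 0.207 in wild type liver (SD, n = 2 each). These did not differ from each other beyond their spread. H2-DMb2 was at 0.249 ± 0.0439 in mutant and 0.255 ± 0.0584 in wild type liver. Ciita was lowest, at 0.127 ± 0.00814 in mutant and 0.158 ± 0.0336 in wild type liver.

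Some ratios of per-kilobase levels varied less between libraries than the levels themselves. The ratio of H2-Aa to H2-Ab1, the partners of the A molecule, was 1.40 and 1.24 in the mutant libraries, against 1.19 and 1.14 in the wild type libraries. Cd74 exceeded H2-Aa 2.19-fold and 2.32-fold in mutant liver, against 2.61-fold and 2.45-fold in wild type liver. Both ratios separated the groups in these 4 libraries, by less than the 1.66-fold and 1.98-fold differences of H2-Aa between libraries of the mutant and the wild type group. They were chosen after the values were seen and were not tested. The ratio of Ciita to H2-Aa was 0.0121 and 0.00664 in mutant liver and 0.0199 and 0.0136 in wild type liver.

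Of the other genes of the class II region, H2-Ob alone had enough counts to be tested. H2-Ob, a chain of the DM inhibitor DO, was at 0.819 and 0.466 CPM in mutant liver and 0.482 and 0.595 CPM in wild type liver, and its log2 fold change was 0.26 with an SE of 0.44 (adjusted p = 0.9999 in edgeR). H2-Oa, the other chain of DO, had 5 and 2 counts in mutant liver and 17 and 2 in wild type liver. H2-Eb2 had 2 and 1 counts in mutant liver and 9 and 1 in wild type liver. Wild type replicate 1, lowest for the 6 genes above, was highest for both, and exons of the opposite-strand gene BC051537 cover 22.8% of the exon length of H2-Oa. Both had too few counts to pass the filter.

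The summed level of the factors that assemble on class II promoters was similar in the 4 libraries, although single genes varied. For the 7 genes of the RFX, CREB and NF-Y complex, 5 log2 fold changes were positive and 2 negative, with a median of 0.034 and 0 past the threshold in edgeR. Their summed level was 93.5 and 94.5 CPM in mutant liver, against 91.4 and 92.2 CPM in wild type liver. In this complex, exons of opposite-strand genes cover 33.8% of the exon length of Rfxank and 26.8% of that of Rfx5. Of 9 genes that process the invariant chain or antigen, 0 passed the threshold in edgeR and 3 had an unadjusted p below 0.05. Cathepsin S (Ctss), which trims the invariant chain, was at 34.5 and 36.4 CPM in mutant liver and 19.9 and 26.1 CPM in wild type liver. Its groups did not overlap, as in 17.0% of all tested genes in that direction, and its log2 fold change was 0.63 (SE 0.13, edgeR adjusted p = 0.0984). It passed the threshold with DESeq2 (adjusted p = 0.00399) and in edgeR with no filter on low counts (adjusted p = 7.55e-07), but not with limma-voom (adjusted p = 0.194). The endosomal protease legumain (Lgmn) was at 57.1 and 68.1 CPM in mutant liver and 45.4 and 47.7 CPM in wild type liver (log2 fold change 0.43; adjusted p = 0.179 in edgeR, and 0.00198 with no filter on low counts). Both were named after their values were seen.

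The summed levels of class I presentation genes and of the response to interferon gamma, an inducer of Ciita, were similar in the 4 libraries, although single genes varied. Of 16 class I genes 12 log2 fold changes were positive and 4 negative, with a median of 0.058 and sums of 4955 and 4636 CPM in mutant and 4452 and 4608 CPM in wild type liver. Of 14 tested genes of the interferon gamma response 10 were positive and 4 negative, with a median of 0.065. Sums were 671 and 653 CPM in mutant and 636 and 646 CPM in wild type liver. In edgeR, 0 genes of both lists passed the threshold, and 0 reached an unadjusted p below 0.05. Ifng itself had 0 and 1 counts in mutant and 0 and 0 in wild type liver. Of 6 tested genes for costimulation, the second signal that presenting cells give to T cells, all 6 log2 fold changes were positive (median 0.74), 0 passed the threshold in edgeR and 2 had an unadjusted p below 0.05. These were Cd274, the inhibitory ligand PD-L1, and the activation marker Cd83, named after their values were seen. The 7 listed genes summed to 7.94 and 10.1 CPM in mutant and to 6.01 and 5.91 CPM in wild type liver.

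Markers of Kupffer cells and other macrophages were higher in mutant liver, in an order of libraries that the class II genes did not share. Of 13 markers, each with counts in every library, 7 passed the threshold as higher, beside 0.280% of all tested genes, and in 13 of 13 the groups did not overlap (17.0% of all tested genes in that direction). Lysozyme (Lyz2), the receptor Csf1r, the oxidase subunit Cybb and the secreted protein Cd5l rose with log2 fold changes of 0.76, 0.66, 0.78 and 0.74 (edgeR adjusted p of 0.00509, 0.0109, 0.0109 and 0.0226). With any 1 library left out these 4 stayed positive but missed the threshold (edgeR adjusted p of 0.0560 to 0.302). With all libraries, Csf1r, Cybb and Cd5l also missed it with limma-voom (adjusted p of 0.0544, 0.0544 and 0.101) and in edgeR without robust estimation (0.0537, 0.0537 and 0.103). Exons of the opposite-strand gene Hmgxb3 cover 15.1% of the exon length of Csf1r. The list summed to 536 and 616 CPM in mutant and to 352 and 374 CPM in wild type liver. The class II sum was 12.8% and 19.1% of the macrophage sum in mutant liver, against 14.2% and 24.3% in wild type liver, and here the groups overlapped.

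Markers of B cells, dendritic cells and monocytes were at low levels, and those of sinusoidal endothelium were higher. For B cells, 13 genes summed to 13.8 and 10.6 CPM in mutant liver and to 11.6 and 23.7 CPM in wild type liver, and every one had counts in all 4 libraries. The immunoglobulin gene Ighm made most of the highest sum, at 5.99 and 3.11 CPM in mutant and 6.29 and 16.2 CPM in wild type liver (log2 fold change −1.30 with an SE of 0.77; adjusted p = 0.990 in edgeR). Without Ighm the B cell sum was 7.77 and 7.52 CPM in mutant and 5.26 and 7.56 CPM in wild type liver. Markers of dendritic cells, 12 genes all with counts in every library, summed to 9.67 and 8.81 CPM in mutant and to 8.77 and 9.85 CPM in wild type liver. Markers of monocytes (6 genes) summed to 7.02 and 6.05 CPM in mutant and to 4.50 and 5.15 CPM in wild type liver, and those of sinusoidal endothelium (8 genes) to 199.2 and 195.1 CPM in mutant and to 190.6 and 199.1 CPM in wild type liver. Mutant replicate 2, the library highest in class II, was lowest for the B cell sum with Ighm. Without Ighm, wild type replicate 1 was lowest, as it was for the class II sum. In these 4 lists 0 genes passed the threshold in edgeR, with 1 B cell gene, 0 dendritic cell, 1 monocyte and 0 endothelial genes at an unadjusted p below 0.05. The part of these cells in the class II levels was not tested.

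**Figure D5:**
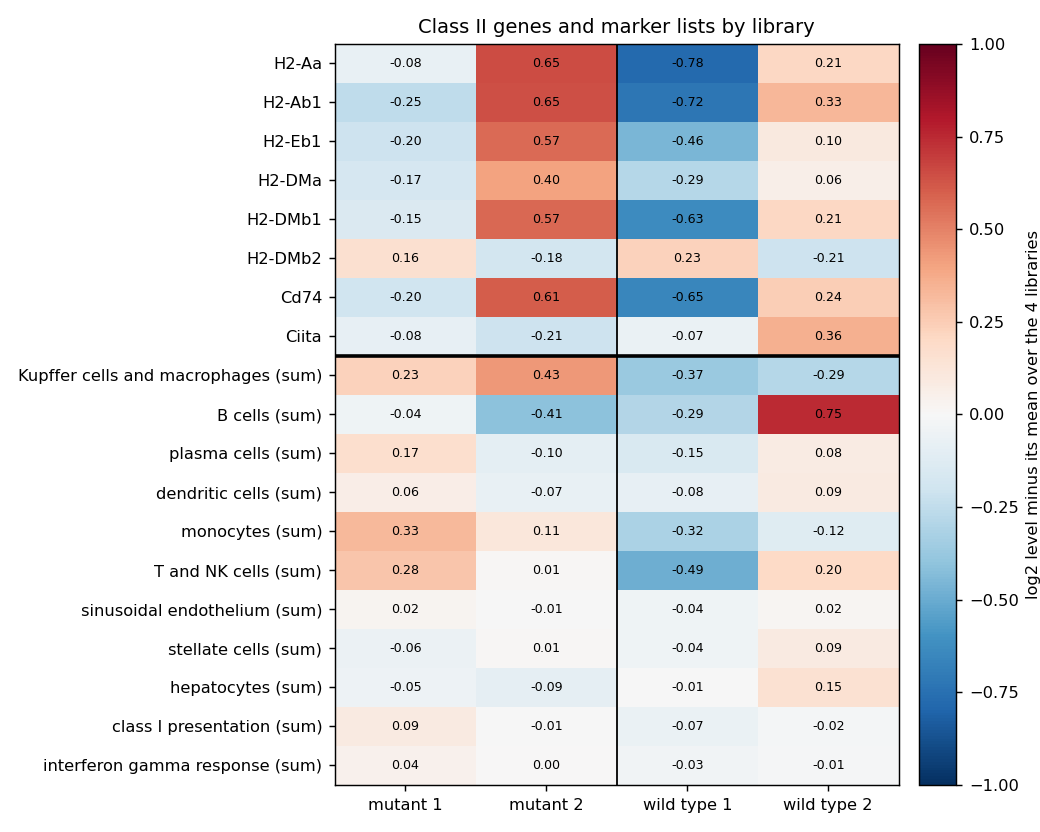
Log2 level in each library minus its mean over the 4 libraries, for the class II genes (above the line, log2 CPM) and for the summed CPM of marker and pathway lists (below it). The macrophage, monocyte, class I and interferon gamma sums are higher in both mutant libraries than in both wild type libraries, and the hepatocyte sum is lower. Most class II genes are instead highest in mutant replicate 2 and lowest in wild type replicate 1.

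The genes whose pattern over the 4 libraries came nearest to the mean of the 8 members were sought among tested genes with an established symbol and an average log2 CPM of at least 0. By root mean square difference of centred log2 CPM they were P2rx7, an ATP-gated channel of immune cells, at 0.031, the thromboxane synthase Tbxas1 and the interferon-inducible GTPase Gbp4 at 0.058 and 0.062, Il6ra, the interleukin 6 receptor, at 0.069, A2ml1 at 0.070 and the clock gene Per1 at 0.071. Among the members this difference was lowest for H2-DMa at 0.089 and highest for H2-DMb2 at 0.49, so these genes lay nearer to the mean than any member. The mean includes H2-DMb2 and Ciita, whose library orders differ. It was −0.42 in wild type replicate 1 and 0.38 in mutant replicate 2, where H2-Aa was at −0.78 and 0.65. Nearness to this mean is thus not likeness to a single member. P2rx7 was at 2.36 and 3.30 CPM in mutant liver and 1.99 and 2.84 CPM in wild type liver. Of these 6 genes 0 passed the threshold in edgeR.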

How the data were processed

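RNA sequencing measured 4 mouse liver libraries, 2 per group. Per the labels' protocols, polyA RNA was made into libraries with a TruSeq kit and sequenced as paired reads. The authors deposited raw counts for Ensembl genes in a separate file for each library, with no normalisation or pooling. TopHat2 2.1.1, HTSeq 0.6.0 and mm10 are named in the submitters' processing notes. How reads were counted, whether by strand, and the release of the gene annotation were not given in the sources used here.

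Of 37315 identifiers, 95.0% had a symbol. Counts were filtered with filterByExpr (minimum count of 10), scaled by TMM and tested with edgeR 4.0.16 (R 4.3.3; robust glmQLFit, glmQLFTest, group as the only term), with Benjamini-Hochberg adjustment over 14657 genes and a threshold of 0.05. Standard errors were taken as the size of the log2 fold change divided by the square root of F. The test was checked on simulated data with known changes of fixed size, drawn with the spread fitted to these libraries. It gave the right direction for nearly all changed genes, but more of its calls were false than the threshold nominally allows. That share depends on these settings, and other group sizes were not simulated. Calls in these data may likewise be less certain than their adjusted p. With 2 against 2 libraries an exact permutation test cannot go below p = 0.333. Coordinates, exon overlaps and transcript lengths come from GENCODE M21.

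The members and the gene lists were chosen with earlier results of these data known. Named genes were the members, Foxo1, up to 4 genes past the threshold in a list or, with none, the 2 of highest CPM, and the 6 nearest in pattern. Some that this rule takes are not named here. Alternatives were other scalings, other filters, DESeq2 1.42.0, limma-voom (limma 3.58.1), non-robust estimation, a replicate block, leaving out each library in turn, and an adjusted p of 0.1.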

Additional observations from a re-analysis of the deposited data

How the results depend on the processing

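With all 4 libraries kept, 61 of 62 alternative values of the members' log2 fold changes kept their direction and side of the threshold, and 0 reversed. Among them the DESeq2 value of H2-DMb2 had no adjusted p and was taken as not past the threshold. The count of all genes past the threshold was 50. It was 258 with no filter, 24 with a filter of 1 CPM in 2 libraries, 109 with DESeq2, 7 with limma-voom, 8 without robust estimation and 3 to 17 with 1 library left out. The cause was not tested.

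The replicate numbers are shared by both groups, but nothing in the labels pairs the libraries, and same-numbered deviations did not correlate over all genes (−0.0072). With the replicate number as a block, 111 genes passed (0.757%), and 1 member did, H2-Aa (log2 fold change 0.57, edgeR adjusted p = 0.0463). Of the 8 members 4 then had an unadjusted p below 0.05, as did 955 of the 14657 tested genes. Ctss passed the threshold as well (edgeR adjusted p = 0.00705).

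With 1 library left out, the remaining one of its group has no replicate and is taken to be as variable as those of the other group. The members' median log2 fold change was then −0.056 to 0.79, and 0 members passed. Ranges of log2 fold changes that reversed were −0.15 to 0.99 for H2-Ab1, −0.050 to 0.73 for H2-Eb1, −0.069 to 0.51 for H2-DMa, −0.25 to 0.22 for H2-DMb2, −0.062 to 0.91 for Cd74, −0.56 to 0.11 for Foxo1, −0.21 to 0.60 for H2-Ob, −0.029 to 0.51 for P2rx7, −0.15 to 0.42 for Il6ra, −0.044 to 0.72 for A2ml1 and −0.12 to 0.50 for Per1. Those of H2-Aa (0.13 to 1.11), H2-DMb1 (0.0072 to 0.90) and Ciita (−0.52 to −0.080) kept their direction. Low counts limit Ciita and H2-DMb2.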
